A study of Homo sapiens with 12 samples.

Results

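EndoC-βH1 cells that had received siRNAs against TUNAR were compared with cells that had received a negative siRNA, both in the solvent DMSO. EndoC-βH1 is an established human beta-cell line derived from fetal pancreas, which makes and releases insulin. Of the 12 polyadenylated RNA libraries of the study, the 6 of this comparison were chosen by their labels: 3 with negative siRNA (AllStars, also labelled as scramble) and 3 with FlexiTube siRNAs against TUNAR. Cells of passage 74 gave replicates 1 and 2 of both groups, and cells of passage 75 gave replicate 3. All 6 cultures received DMSO at 1:1000 for 24 hours, starting 2 days after transfection, and none of them received 1-AKP, a GSK3 inhibitor given at 5 µM to the other 6. All cultures are of this cell line. The 3 libraries share the label of FlexiTube siRNAs against TUNAR, and the labels give neither the sequences nor the number of these siRNAs. Loss of TUNAR and other effects of these siRNAs therefore cannot be told apart. The labels do not say whether the 3 cultures were transfected separately, so the spread behind the p-values is that between these libraries and may be technical.

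TUNAR is an RNA conserved among vertebrates and expressed in the nervous system and in islets. Its mouse counterpart, Tuna, was described as a long noncoding RNA that binds the RNA-binding proteins PTBP1, hnRNP-K and nucleolin and occupies the promoters of neural and pluripotency genes. The same transcript was later reported to encode a small membrane peptide of the endoplasmic reticulum that acts on the SERCA calcium pump. In beta cells, calcium held in the endoplasmic reticulum takes part in both the folding of secreted proteins and the release of insulin granules.

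The 6 libraries were of nearly equal depth, from 15775798 to 15967349 expected counts. The low-count filter left 15990 genes. Of the beta-cell markers all 10 listed were tested, with a summed level between 11400 and 14400 CPM (normalised counts scaled to a common library total, after TMM) with negative siRNA and between 11600 and 14900 CPM with TUNAR siRNAs, most of it INS. In the paired test described below, 3 of the 10 fell (IAPP, NKX6-1 and PDX1) and 0 rose, with a median change of -0.104. Over all tested genes 1.36% fell and 1.71% rose. These 3 genes are counted again in the lists below. The counts were 2 risen and 3 fallen without replicate 1, 0 and 2 without replicate 2, and 1 and 2 without replicate 3. Over all 15990 tested genes the same 3 fits called 368, 104 and 268 genes, against 492 with every replicate. In the 6 DMSO libraries alone 2 rose and 4 fell, and the paired limma tests described below had 0 risen and 1 fallen. The fit of these 6 libraries called 757 of 15673 tested genes, and the limma tests called 63 and 38 genes. The glucagon and ghrelin genes GCG and GHRL, the duct markers CFTR and SPP1 and the endothelial markers VWF, CDH5 and KDR did not pass the filter. The 5 tested markers of other islet cells summed to 1760, 1550 and 1380 CPM with negative siRNA in replicates 1, 2 and 3. With TUNAR siRNAs they summed to 1640, 1470 and 1330 CPM. The 4 tested duct and acinar markers summed to 73.6, 87.1 and 89.4 CPM with negative siRNA. After TUNAR siRNAs they summed to 79.1, 98.4 and 97.5 CPM. The tested fibroblast and stellate markers, 2 of 9 listed, summed to between 4.07 and 6.93 CPM and between 3.44 and 6.1 CPM. The 4 tested endothelial and blood markers summed to 55.7, 42.8 and 33.5 CPM with negative siRNA and to 42.1, 29.5 and 27.8 CPM with TUNAR siRNAs in replicates 1, 2 and 3, most of it CD68. CD68 encodes a lysosomal glycoprotein that is used as a macrophage marker and is also made by other cells. In bulk RNA, fewer cells of a type and less RNA per cell cannot be told apart, and the part of this marker in other results was not tested.

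TUNAR (Entrez Gene 100507043) was at 14.4, 19.9 and 17.7 CPM in control replicates 1, 2 and 3, those with negative siRNA. After TUNAR siRNAs it was at 3.83, 7.2 and 8.09 CPM. The groups did not overlap, and the mean was 36.8% of the mean with negative siRNA. By replicate number the remaining share was 26.6%, 36.1% and 45.8%. The log2 fold change was -1.44 without pairing (edgeR adjusted p = 0.248) and -1.45 with same-numbered libraries as pairs (SE 0.194, 95% interval -1.91 to -0.99, adjusted p = 0.0108). Leaving out replicate 2 ended this call (adjusted p = 0.303). A permutation test, exact and two-sided, had p = 0.1, the smallest that 3 libraries against 3 allow. Of the 14 tested genes of its chromosomal neighbourhood, TUNAR was the only one called in the paired test as defined below. GSKIP, the inhibitory binding protein of GSK3, and PAPOLA, a poly(A) polymerase, changed by 0.05 (95% interval -0.05 to 0.14) and 0.02 (-0.04 to 0.09), neither past the threshold, and DICER1, the enzyme that cuts small RNA precursors, by -0.11 (adjusted p = 0.0617). DICER1 was called as fallen in 4 other paired fits: with library size scaling (adjusted p = 0.043), without the filter (0.046), in the 6 DMSO libraries alone (0.0141) and with the length trend removed (0.0126). ATG2B, an autophagy gene, rose without replicate 1 (0.19, adjusted p = 0.041).

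Without pairing, edgeR's quasi-likelihood test called 2 genes, 0.0125% of those tested, and both fell: SYPL1 and B4GALT4. At an unadjusted p under 0.05 there were 776 genes (4.85%). With same-numbered libraries as pairs it called 492 genes (3.08% of those tested), 274 risen (1.71%) and 218 fallen (1.36%), both unpaired calls among them. The changes were small: the median size was 0.221 on the log2 scale, 205 of the 492 were under 0.2, and 45 were at least 0.5, of which 26 rose and 19 fell. In 486 of them the 3 pairs moved in 1 direction, as 36.8% of all tested genes did, and in 275 the groups did not overlap, as in 10.5% of all tested genes (5.3% higher and 5.22% lower with TUNAR siRNAs). Taking replicate 2 out ended 399 of the 492 calls, replicate 3 ended 262 and replicate 1 ended 213. Calls of 78 genes (0.488% of those tested), 39 risen and 39 fallen (0.244% each), held up whichever replicate number was left out. These 78 are called stable calls from here on. They changed by between 0.14 and 0.62 in size, with a median of 0.30. DESeq2 with the pairs gave an adjusted p to 7000 genes and called 168 of them. It called the 65 of the 78 stable calls that had an adjusted p, and the other 13 had none. Limma with the pairs called 41 of the 78 on log2(FPKM + 0.1), out of 63 calls, and 26 on log2(FPKM + 1), out of 38.

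**Figure D1:**
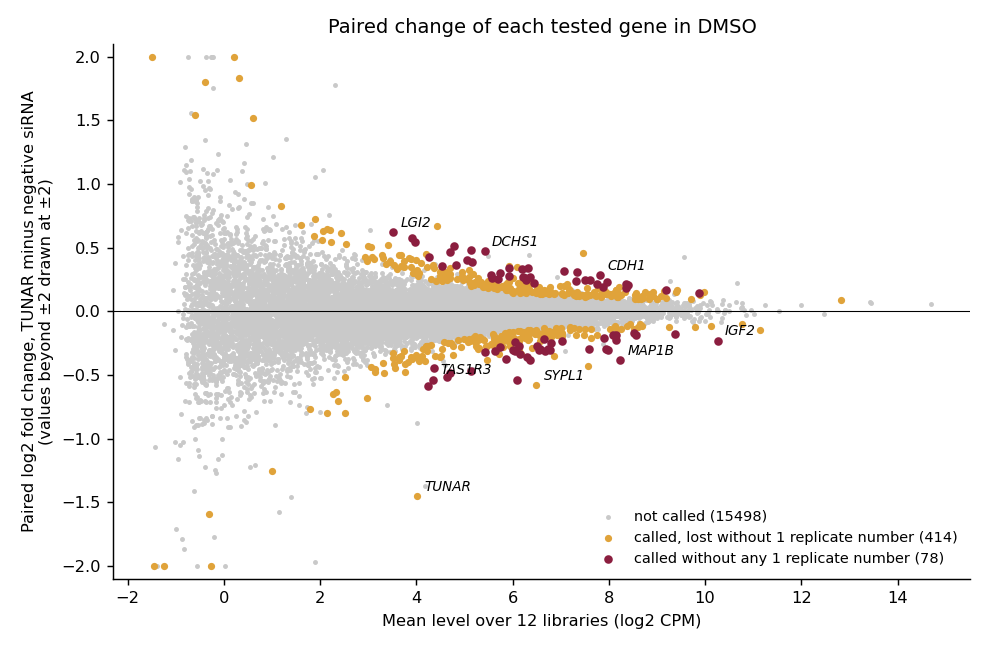
Paired log2 fold change of each of the 15990 tested genes (TUNAR minus negative siRNA in DMSO) against its mean level over 12 libraries in log2 CPM; grey points were not called, orange points lost their call without at least 1 replicate number, and dark red points kept it without any 1. The 78 dark red points lie within 0.62 of 0 on both sides, while called changes past 1 belong to TUNAR and to genes of low level.

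SYPL1 and B4GALT4 were the falls called without pairing. SYPL1 (Entrez Gene 6856) encodes synaptophysin-like 1, a vesicle membrane protein. Control libraries had 109, 107 and 100 CPM, and those with TUNAR siRNAs had 62.5, 74.4 and 75.1 CPM. The groups were far apart, and replicate 1 had both the highest level with negative siRNA and the lowest with TUNAR siRNAs. The paired log2 fold change was -0.58 (SE 0.072, adjusted p = 0.00303), and without replicate 2 its adjusted p was 0.066. No other member of its family was called: synaptophysin itself (SYP) changed by 0.03 (95% interval -0.02 to 0.09) and the synaptogyrin gene SYNGR2 by -0.04 (-0.13 to 0.05).

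B4GALT4 (Entrez Gene 8702) encodes a Golgi galactosyltransferase that extends glycan chains, among them those of keratan sulfate. It went from 84.8, 82.5 and 77.6 CPM in the controls to 51.7, 56.6 and 60.2 CPM. The groups did not overlap, and the paired log2 fold change of -0.54 (SE 0.054, adjusted p = 3.07e-06) was a stable call. Its paralogs were not called. B4GALT3 and B4GALT5 changed by 0.00 (95% interval -0.10 to 0.11) and 0.02 (-0.06 to 0.10), and B4GALT6, which makes lactosylceramide, by -0.16 (adjusted p = 0.0895). CHST2, a sulfotransferase acting on the same kind of glycan, was the other called gene among the 24 tested galactosyltransferases and chain enzymes. It rose from 45.7, 64.7 and 65.8 CPM to 66.6, 80.3 and 76.2 CPM (0.34, adjusted p = 0.0304), and its call ended without replicate 1 or 2.

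**Figure D2:**
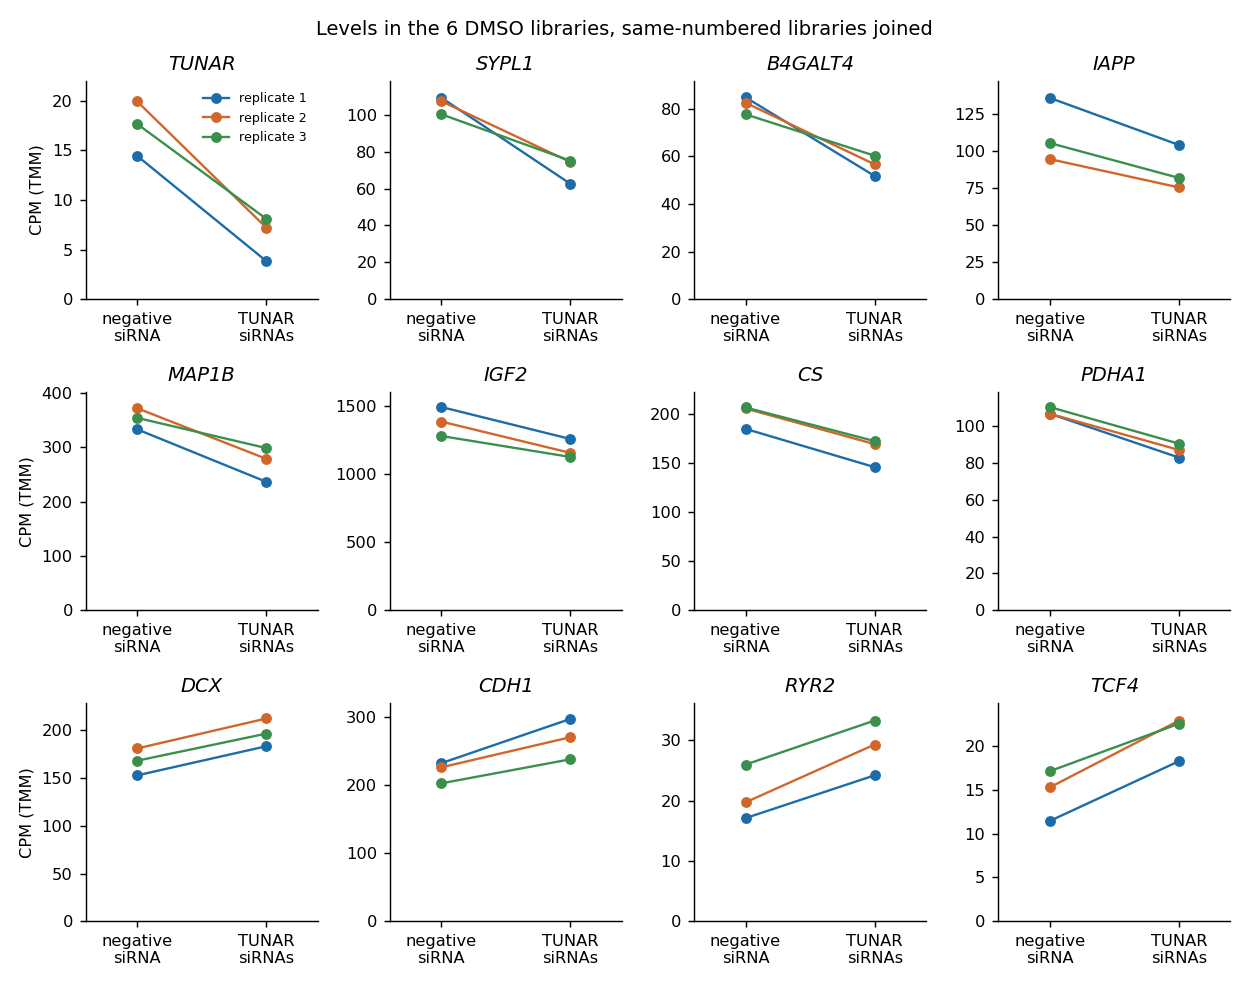
Levels of 12 genes in CPM after TMM scaling, with negative siRNA on the left and TUNAR siRNAs on the right of each panel; each line joins the libraries of 1 replicate number, and each axis starts at 0. All 3 lines fall for IAPP and IGF2 and rise for DCX and RYR2, although their replicates start at different levels. All 3 SYPL1 and B4GALT4 lines fall to levels below every library with negative siRNA.

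Among the stable falls were secreted products of the cells. IAPP, the islet amyloid polypeptide that is released together with insulin, went from 136, 94.6 and 106 CPM in the controls to 104, 75.5 and 81.9 CPM. The groups overlapped, since replicate 1 was high in both, while the 3 pair differences were alike at -0.38, -0.32 and -0.36 (paired log2 fold change -0.36, SE 0.041, adjusted p = 1.74e-06). APOB, the structural protein of lipoprotein particles, fell from 113, 103 and 84.6 CPM to 85.8, 75.8 and 68.9 CPM (-0.38, adjusted p = 1.49e-06). Here too replicate 1 was highest in both groups, and the groups overlapped by 1 library of each.

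The growth factor gene IGF2 had 1493, 1386 and 1280 CPM in the controls against 1258, 1156 and 1126 CPM. The lowest control library lay just above the highest with TUNAR siRNAs, and the paired change was -0.23 (SE 0.027, adjusted p = 1.86e-06). Reads of IGF2 may also be split with the annotated readthrough transcript INS-IGF2. The neighbouring imprinted RNA gene H19, named here after its values were seen, fell by 0.27 (adjusted p = 0.00369), a call that ended without replicate 2. IGFALS, the acid-labile subunit that holds insulin-like growth factors in circulating complexes, went from 24.8, 23.2 and 16.5 CPM to 13.4, 16.1 and 13.1 CPM (-0.59, adjusted p = 0.000126, a stable call). IGFBP5, a secreted binding protein of these growth factors, rose instead, from 100, 243 and 247 CPM to 147, 343 and 316 CPM (0.46, adjusted p = 0.000212; 0.0699 without replicate 1). In both groups its replicate 1 was far below the others. These 3 were the called genes among 30 tested of the insulin and IGF axis, and the receptors IGF1R and INSR changed by -0.04 (95% interval -0.11 to 0.04) and 0.04 (-0.04 to 0.12).

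Several stable falls belonged to enzymes and structural proteins. MGAT4A, a Golgi enzyme that branches N-glycans, went from 302, 287 and 271 CPM to 233, 232 and 233 CPM (-0.30, SE 0.033, adjusted p = 1.49e-06). Its 3 libraries with TUNAR siRNAs were almost equal. CS, citrate synthase, which starts the citric acid cycle, went from 185, 206 and 207 CPM to 146, 170 and 173 CPM (-0.29, SE 0.035, adjusted p = 2.59e-06). PDHA1, the catalytic alpha subunit of pyruvate dehydrogenase, went from 107, 107 and 110 CPM to 82.9, 87 and 90.5 CPM (-0.31, SE 0.039, adjusted p = 4.02e-06). The groups of both enzymes did not overlap. Other parts of the same complex and cycle, picked after their values were seen, were not called: PDHB changed by 0.06 (95% interval -0.01 to 0.14), DLAT by 0.00 (-0.08 to 0.08) and IDH3A by -0.02 (-0.10 to 0.07). PGD, an enzyme of the pentose phosphate pathway, fell from 238, 240 and 243 CPM to 204, 206 and 213 CPM (-0.21, adjusted p = 0.000137).

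MAP1B, a microtubule-associated protein of growing axons, fell from 333, 372 and 354 CPM to 236, 279 and 299 CPM (-0.38, SE 0.036, adjusted p = 1.86e-06). JPT2, which binds the calcium-mobilising messenger NAADP, fell from 248, 255 and 263 CPM to 188, 211 and 227 CPM (-0.29, adjusted p = 1.74e-06). ERLIN2, an endoplasmic reticulum protein that takes part in degrading activated IP3 receptors, fell from 66.8, 64.3 and 60.2 CPM to 51.9, 47.1 and 48.3 CPM (-0.38, adjusted p = 7.5e-06). In these 3 genes, too, all libraries with TUNAR siRNAs lay below all with negative siRNA. The other stable falls included the corepressor TLE3 (-0.49), the immunoglobulin-family receptor IGDCC4 (-0.52), the sweet and umami taste receptor subunit TAS1R3 (-0.54), the Polycomb RING-finger protein PCGF5 (-0.34), the basement membrane collagen COL4A2 (-0.27) and CD68 (-0.47). COL4A1, the partner chain of COL4A2, changed by -0.17 (adjusted p = 0.404).

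The stable rises included adhesion proteins. DCHS1, a large protocadherin of the Fat and Dachsous planar polarity pathway, rose from 33.5, 39.9 and 44.5 CPM to 45.1, 57.1 and 61.7 CPM. The groups did not overlap, and the pair differences were 0.42, 0.52 and 0.47 (paired log2 fold change 0.47, SE 0.052, adjusted p = 1.49e-06). CDH1, the epithelial cadherin E-cadherin, rose from 232, 226 and 203 CPM to 297, 270 and 238 CPM (0.28, SE 0.034, adjusted p = 3.17e-06). TIMP3, an inhibitor of matrix metalloproteinases, rose from 18.2, 27.8 and 25 CPM to 29.4, 38.6 and 33.1 CPM (0.51, adjusted p = 1.9e-05). Replicate 1 was lowest in both groups for DCHS1 and TIMP3 and highest in both for CDH1.

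DCX, the microtubule protein doublecortin of young neurons, rose from 152, 181 and 168 CPM to 183, 212 and 196 CPM (0.24, SE 0.034, adjusted p = 3.41e-05). STMN2, stathmin 2, which binds tubulin in neurites, rose from 230, 250 and 225 CPM to 272, 275 and 260 CPM (0.20, adjusted p = 0.000212). WASF3, a regulator of actin branching, rose from 73.3, 69.4 and 67.7 CPM to 94.2, 91.5 and 81.2 CPM (0.34, adjusted p = 4.9e-06). None of these 3 genes had overlapping groups. TCF4, an E-protein transcription factor distinct from TCF7L2, rose from 11.4, 15.2 and 17.1 CPM to 18.2, 22.9 and 22.5 CPM (0.54, SE 0.091, adjusted p = 0.00045). RYR2, the ryanodine receptor through which stored calcium is released, rose from 17.1, 19.7 and 26 CPM to 24.2, 29.3 and 33.3 CPM (0.47, SE 0.072, adjusted p = 8.83e-05). The RYR2 groups overlapped, with replicate 3 high in both. DESeq2 with the pairs gave neither TCF4 nor RYR2 an adjusted p.

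PABPC4, a cytoplasmic poly(A)-binding protein, rose from 112, 113 and 117 CPM to 152, 134 and 141 CPM (0.32, SE 0.038, adjusted p = 2.87e-06). ADCY1, a calcium-stimulated adenylyl cyclase, rose from 158, 178 and 185 CPM to 185, 221 and 212 CPM (0.25, adjusted p = 2.85e-05). CRYBA2, a crystallin family gene found in endocrine cells, rose from 142, 238 and 272 CPM to 164, 276 and 316 CPM (0.22, adjusted p = 1.89e-05). CRYBA2 shows what pairing adds: its level nearly doubled between replicates of a group, and each of the 3 pair differences was 0.22. Further stable rises were ST3GAL5, which makes the ganglioside GM3 (0.58), LGI2 (0.62), the auxiliary transmembrane protein gene SHISAL1 (0.49), the trafficking regulator DENND5B (0.40) and the nuclear envelope protein SYNE2 (0.23).

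The largest folds belonged to genes of low level. Of the 12 called genes at 1 or more on the log2 scale, 10 had a mean log2 CPM under 1, and 5 had every library of a group at 0, so no fold is given for those. RGS6, which speeds the shut-off of G-protein signals, went from 0.812, 0.685 and 0.563 CPM to 1.63, 2.32 and 2.01 CPM (1.52, SE 0.316, adjusted p = 0.00364). Its groups did not overlap, and its call ended without replicate 2 or 3. SAPCD1 went from 2, 3.73 and 2.88 CPM to 1.01, 1.19 and 1.38 CPM (-1.25, adjusted p = 0.0185), a call that ended without replicate 1 or 2. Other large rises were ADGRG1, an adhesion G-protein-coupled receptor (0.67), SERTM2 (0.64), the sodium channel gene SCN7A (0.59), BAALC (0.56), JAKMIP1 (0.54) and ASIC4 (0.53), each lost without at least 1 replicate number.

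Some of the larger falls cannot be assigned to 1 gene. SSTR5, a somatostatin receptor, fell from 9.24, 6.91 and 5.2 CPM to 5.34, 3.82 and 3.07 CPM (-0.80, adjusted p = 0.000881), and its antisense neighbour SSTR5-AS1, named after its values were seen, fell by 0.45 (adjusted p = 0.00983). No strand marking is stated for these libraries, so reads of the pair cannot be told apart. TEN1-CDK3 (-0.80) is a readthrough of neighbouring genes, and C4A (-0.68) has the near-identical copy C4B, so the counting could have moved reads between copies. FER1L5, a member of the ferlin family of membrane fusion proteins, fell from 6.31, 6.66 and 7.01 CPM to 3.9, 4.26 and 4.07 CPM (-0.71, adjusted p = 0.0022; 0.0599 without replicate 2).

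Genes were also described by lists, read against the 1.71% risen and 1.36% fallen of all tested genes, whose median change was -0.0024. These shares are not matched for level. The median level in log2 CPM was 6.15 for risen, 6.01 for fallen and 4.59 for all tested genes. Lists of well-expressed genes may hold more calls for that reason, and no list was compared with genes of like level. The counts over all 15990 tested genes also dropped when a replicate number was left out. Without replicate 1, 2 and 3 there were 212, 51 and 137 risen and 156, 53 and 131 fallen genes. List counts without a replicate number are to be read against these. Of 22 beta-cell transcription factors 0 rose and 2 fell, while the list's median was 0.029. NKX6-1, which maintains beta-cell identity, went from 119, 130 and 131 CPM to 99.9, 117 and 110 CPM (-0.22, adjusted p = 0.00164, a stable call). PDX1, the central factor of pancreas and beta cells, went from 322, 336 and 343 CPM to 293, 305 and 310 CPM (-0.14, adjusted p = 0.00324; 0.0913 without replicate 2). Neither gene's groups overlapped, and the PDX1 pair differences were all -0.14. FOXA2, ISL1 and NEUROD1, further factors of the islet programme, changed by -0.00, 0.05 and -0.02, none past the threshold.

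Of 21 islet hormone and granule cargo genes 0 rose and 2 fell, with a median of -0.005. IAPP was the stable fall, and CHGB, the granule matrix protein chromogranin B, fell by 0.12 (adjusted p = 0.00567; 0.232 without replicate 2). INS itself had 9286, 10630 and 11930 CPM in the controls against 9454, 11630 and 12450 CPM. Replicates differed more than groups, and the paired change was 0.07 (95% interval 0.02 to 0.13, adjusted p = 0.16). Without replicate 1 the list had 3 risen and 2 fallen members, INS among the risen (adjusted p = 0.00822).

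Of 32 exocytosis genes 4 rose and 0 fell, with a median of 0.024. The synaptotagmin-family gene SYT11 rose by 0.24 and CPLX1, complexin 1, which clamps and primes fusion complexes, by 0.28, both stable calls. CADPS, the priming factor CAPS1 of dense-core granules, rose by 0.13 and SYT4 by 0.15, and both calls ended without replicate 2 or 3. The core fusion proteins SNAP25 and VAMP2 changed by 0.00 (95% interval -0.08 to 0.08) and 0.06 (-0.03 to 0.15). The KATP and voltage-gated channel list had 1 risen and 1 fallen of 27, and the channel subunits KCNJ11 and ABCC8 changed by 0.00 (-0.07 to 0.08) and 0.06 (-0.01 to 0.13).

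Receptors and their regulators were among the lists with more calls. Of 20 nutrient and hormone receptors 3 rose and 2 fell. GPR119, a receptor for lipid amides that raises cyclic AMP in beta cells, rose from 3.62, 4.92 and 4.38 CPM to 6.1, 7.14 and 7.02 CPM (0.65, adjusted p = 0.00513), and the prostaglandin E receptor PTGER3 rose by 0.28, as did CASR, the calcium-sensing receptor, by 0.11 (named after its values were seen). TAS1R3 and SSTR5 were the falls. Without replicate 2 the list had 0 risen and 1 fallen. DESeq2 with the pairs called 0 of the 9 members to which it gave an adjusted p, and GPR119, PTGER3, TAS1R3 and SSTR5 were not among these 9. GLP1R and FFAR1 changed by 0.22 (95% interval -0.13 to 0.57) and -0.02 (-0.11 to 0.07). Of 19 genes for RGS proteins and their partners 4 rose and 0 fell, while the median was 0.018. They were RGS6, RGS9 (0.68), the membrane anchor RGS7BP (0.82) and GPR179, which tethers R7 RGS proteins in retinal cells (0.41). This count fell to 0 without replicate 2, 1 without replicate 3 and 2 without replicate 1, and DESeq2 gave none of the 4 an adjusted p. GNB5, the obligate partner of R7 RGS proteins, changed by 0.05 (-0.05 to 0.16).

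Of 15 genes of endoplasmic reticulum calcium handling 1 rose, RYR2, and 2 fell. CALR, the luminal calcium-binding chaperone calreticulin, fell from 1175, 1100 and 1046 CPM to 1066, 1049 and 951 CPM (-0.12, adjusted p = 0.0101). ORAI3, a subunit of store-operated calcium channels, fell from 24.6, 22 and 18.6 CPM to 20, 18.6 and 15.4 CPM (-0.27, adjusted p = 0.0427). Both calls ended without at least 1 replicate number. The SERCA pump genes ATP2A2 and ATP2A3 changed by 0.01 each (95% intervals -0.04 to 0.06), so any paired change beyond 0.06 in size lay outside their intervals.

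Unfolded protein response and chaperone genes had 6 risen and 2 fallen of 30, with a median of 0.062. PDIA3, a disulfide isomerase of glycoprotein folding, rose from 849, 855 and 812 CPM to 967, 922 and 889 CPM (0.14, adjusted p = 0.000796, a stable call). The other risen members were PDIA4 (0.15), MANF (0.22), HSPA5, the chaperone BiP (0.13), PDIA6 (0.11) and HYOU1 (0.10). CALR and TRIB3, a pseudokinase induced by stress (-0.14), fell. PDIA6, HYOU1 and TRIB3 were named after their values were seen. The counts were 3 risen and 1 fallen without replicate 1, 2 and 0 without replicate 2, 3 and 0 without replicate 3, and 4 and 2 with library size as the only scaling. DESeq2 with the pairs had 5 risen and 1 fallen, and both paired limma tests had 0 and 0. Over all tested genes the limma tests called 63 and 38. XBP1 and ATF4, transcription factors of the response, changed by -0.00 (95% interval -0.07 to 0.06) and -0.09 (adjusted p = 0.118).

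Neuronal lists held mostly rises. Of 28 neurite and neuronal cytoskeleton genes 4 rose (DCX, STMN2, the adhesion molecule CNTN1 at 0.15 and SOX11 at 0.17, the last named after its values were seen) and MAP1B fell, with a median of 0.042. Scaling by library size alone gave 3 risen and 2 fallen. DESeq2 with the pairs had 3 risen and 1 fallen, and both paired limma tests had 0 risen and 1 fallen. Of 31 synaptic adhesion and axon guidance genes 5 rose and 0 fell, with a median of 0.099: the guidance receptor ROBO1 (0.14), the netrin and RGM receptor NEO1 (0.19), its ligand RGMA (0.63), the semaphorin receptor PLXNA4 (0.51) and the synaptic adhesion protein LRRC4B (0.62). RGMA went from 2.87, 4.61 and 4.26 CPM to 6.6, 5.63 and 5.83 CPM. None of the 5 was a stable call, and the list had 3, 0 and 2 called members without replicate 1, 2 and 3. DESeq2 with the pairs called 2 members of this list as risen, and both paired limma tests called 0. The median transcript length in the guidance list was 5954 bases against 2889 over all tested genes, and with the length trend removed its median change was 0.07 and 5 members still rose. Of 12 basic helix-loop-helix genes 2 rose, TCF4 and the inhibitor ID2 (0.15), while TCF3 and TCF12, the other E proteins, changed by -0.03 (95% interval -0.12 to 0.06) and 0.09 (0.00 to 0.18, adjusted p = 0.319).

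**Figure D3:**
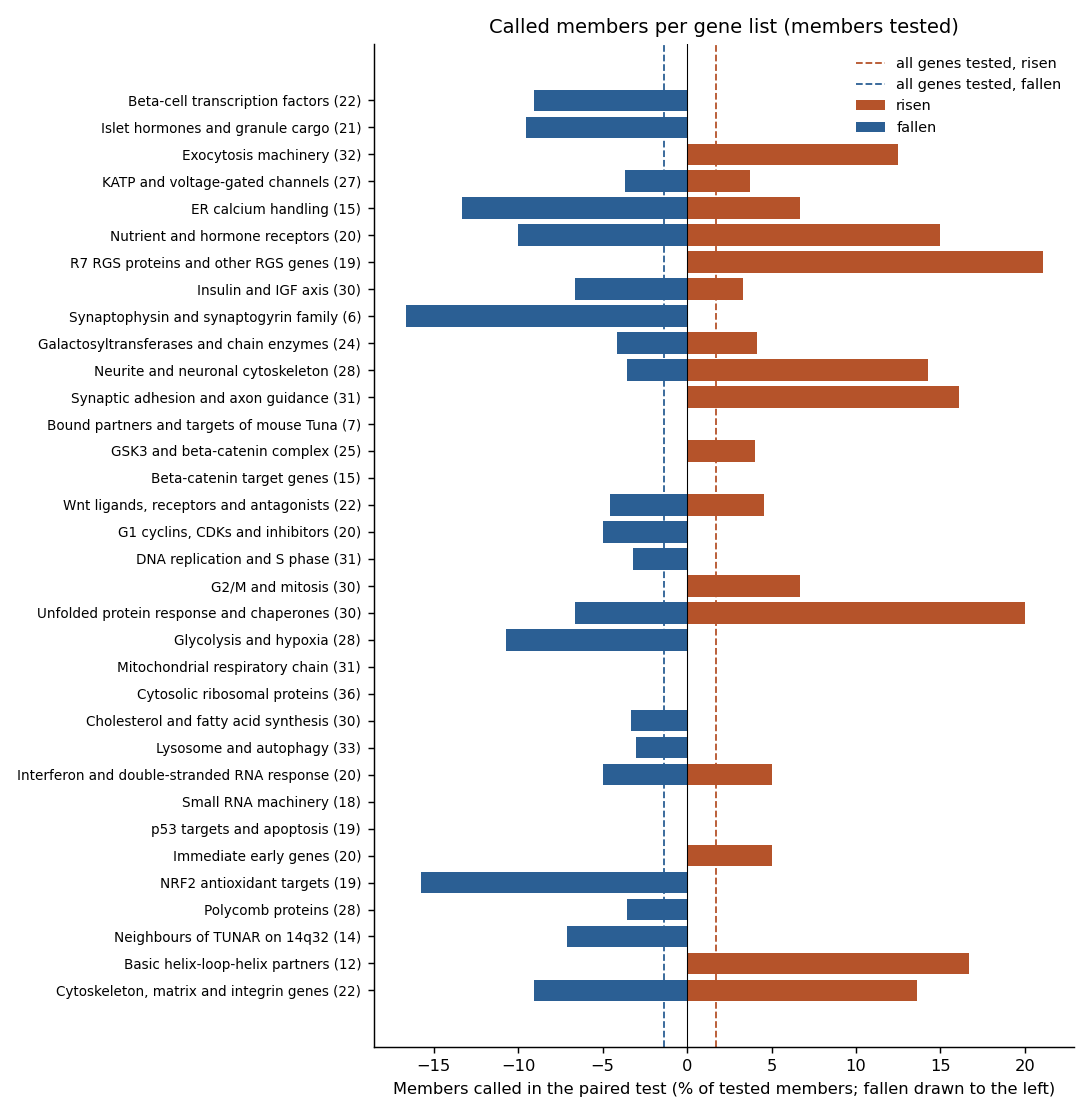
Share of tested members called risen (right, red) or fallen (left, blue) in the paired test for each pathway list with at least 5 tested members, whose number is in brackets; dashed lines mark the shares over all tested genes, 1.71% risen and 1.36% fallen. RGS (4 of 19) and unfolded protein response genes (6 of 30) reach furthest to the right. Several lists hold falls only, among them NRF2 targets and glycolysis and hypoxia genes. Most bars stand for 1 to 4 genes.

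NRF2 antioxidant targets had 0 risen and 3 fallen of 19, with a median of -0.095, and 16 of the 19 lay below 0, against 51.1% of all tested genes. Other lists leaned the same way. Below 0 were 23 of 28 glycolysis and hypoxia genes, 23 of 31 respiratory chain genes and 29 of 36 cytosolic ribosomal proteins. Some lists leaned upward, among them the G2/M genes with 22 of 30 above 0. With the length trend removed the NRF2 list had a median of -0.075 and still 3 fallen members. In that fit the respiratory chain median moved from -0.021 to -0.005 and the ribosomal protein median from -0.026 to -0.006. The median lengths of these 2 lists were 1161 and 792 bases, against 2889 over all tested genes. Without replicate 2 the NRF2 list had 1 fallen member, as it had in limma on log2(FPKM + 1). PGD was the stable fall. FTL, the ferritin light chain, fell from 2369, 2061 and 1894 CPM to 2136, 1825 and 1744 CPM (-0.15, adjusted p = 0.000224; 0.059 without replicate 2), and NQO1, a quinone reductase, fell by 0.24 (adjusted p = 0.0307). GCLM and TXNRD1, other targets, changed by -0.03 and -0.06, neither past the threshold. Of 28 glycolysis and hypoxia genes 0 rose and 3 fell: GAPDH (-0.10), the lactate exporter SLC16A3 (-0.34) and VEGFA (-0.10). That count of falls was 1, 1 and 0 without replicate 1, 2 and 3, and 1 with the length trend removed. Of 22 cytoskeleton, matrix and integrin genes 3 rose and 2 fell, ITGB1, the integrin beta 1 chain (0.15), and fibronectin FN1 (0.36; named after its values were seen) among the risen, COL4A2 and the laminin chain LAMA5 (-0.31) the fallen.

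The cell cycle, Wnt and RNA lists held few calls. The risen of 30 G2/M genes were the proliferation marker MKI67 (0.14) and the topoisomerase TOP2A (0.10), of 31 S-phase genes UHRF1 fell (-0.29), and of 20 G1 genes CCNE1 fell (-0.24), calls that ended without at least 1 replicate number. Among 25 genes of the GSK3 and beta-catenin complex 1 rose, the coactivator BCL9 (0.16), and GSK3A, GSK3B and CTNNB1 changed by 0.02, 0.08 and 0.05, none past the threshold. Of 22 Wnt ligands, receptors and antagonists DKK3 rose (0.34) and the receptor ROR2 fell (-0.18), and 0 of 15 beta-catenin targets were called. The 7 tested partners and targets described for mouse Tuna had 0 calls, with PTBP1 at -0.02 (95% interval -0.07 to 0.04), HNRNPK at 0.01 (-0.05 to 0.06), NCL at 0.04 (-0.02 to 0.10) and SOX2 at 0.08 (-0.27 to 0.42). MSMO1, a sterol oxidase, fell (-0.14) as 1 of 30 cholesterol and fatty acid synthesis genes, CD68 as 1 of 33 lysosome and autophagy genes, PCGF5 as 1 of 28 Polycomb genes, and KLF6, a zinc-finger factor, rose (0.30) as 1 of 20 immediate early genes. Among markers of other cells, KRT19, a keratin of duct cells, rose (0.21) as 1 of 4 tested duct and acinar markers, 0 of 5 tested markers of other islet cells were called and FER1L5 was 1 of 2 tested ferlins. Lists with 0 calls also included 18 small RNA machinery genes, 19 p53 targets, 31 respiratory chain genes and 36 cytosolic ribosomal proteins. In the interferon list, whose genes respond to double-stranded RNA, HLA-E, an antigen-presenting molecule, fell (-0.14) as 1 of 20 tested, and the interferon-induced genes IFIT1 and OAS1 changed by 0.17 (-0.18 to 0.51) and -0.04 (-0.37 to 0.28).

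The same siRNA contrast can be read in the 6 libraries that received 1-AKP, which share no library with the DMSO comparison but share its gene-wise spread in the fit. The labels do not say whether same-numbered DMSO and 1-AKP cultures came from the same transfection. Of the 492 genes called in DMSO, 482 (98.0%) moved in the same direction in the 1-AKP pairs, 268 of 274 risen and 214 of 218 fallen, and over all tested genes 65.5% did. In the 1-AKP libraries 481 genes were called (3.01% of those tested), 260 of them among the 492 with the same direction and 1, RNU6-15P, with the opposite direction. Without replicate 1, 2 and 3 there were 5, 0 and 4 genes called in both treatments in opposite directions. The median size was 0.221 in DMSO and 0.177, signed by the DMSO direction, in 1-AKP. All 78 stable calls had the same direction in 1-AKP and 71 of them were called there. The fits that defined the stable calls also held the 1-AKP libraries, with the same replicate number left out in both treatments. A stable call thus needed a small spread over both treatments, so the 71 are no separate check. B4GALT4 (-0.49), MAP1B (-0.34), IGF2 (-0.21), DCHS1 (0.43) and RYR2 (0.51) were close to their values in DMSO, whereas TEN1-CDK3 (-0.03) and C4A (0.09) were not called. Of the 10 genes that moved in opposite directions, 4 had a mean log2 CPM under 1. A direct test of the difference between the siRNA effects called 1 gene with the pairs, RNU6-15P (0.00625% of those tested; 522 had an unadjusted p under 0.05), 0 in edgeR without pairs (170) and 0 in DESeq2 without pairs (64).

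**Figure D4:**
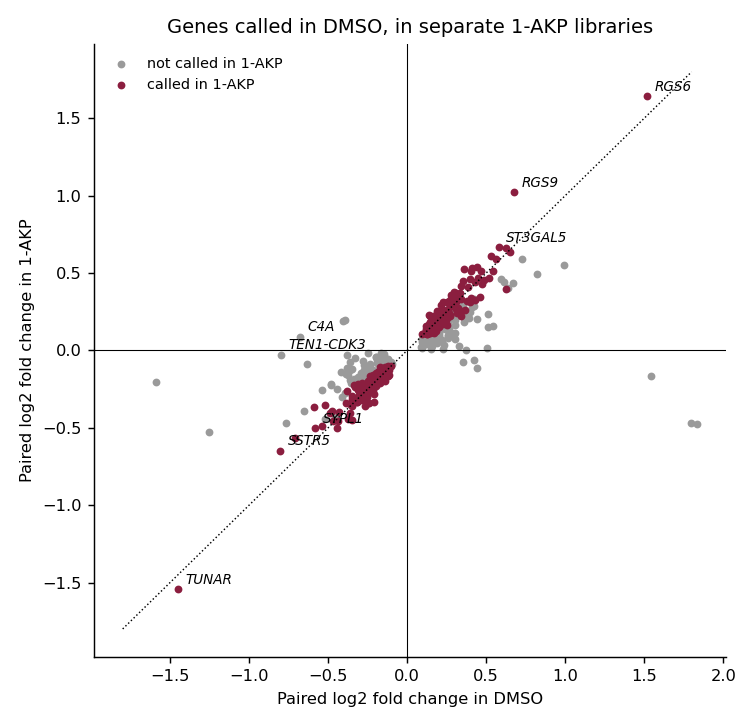
Paired log2 fold change with TUNAR siRNAs in the 1-AKP libraries against that in the DMSO libraries for genes called in DMSO; dark red points were also called in 1-AKP, the dotted line marks equal change, and 5 of the 492 genes lie beyond the axes at 2.2 and are not drawn. Nearly all points lie at lower left and upper right, and the few drawn elsewhere were not called in 1-AKP. RNU6-15P, called in both treatments in opposite directions, is among the genes not drawn.

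The median size of the change was largest in pair 1 and smallest in pair 3, while the remaining TUNAR was lowest in pair 1 and highest in pair 3. The median pair difference of the risen genes was 0.237, 0.205 and 0.169 in pairs 1, 2 and 3, and that of the fallen genes -0.265, -0.226 and -0.209. Single genes did not all follow this order: 173 of the 492 (35.2%) did in DMSO and 184 (37.4%) in 1-AKP, against 18.1% and 21.1% of all tested genes. Among the 78 stable calls 39 (50.0%) did in DMSO and 40 (51.3%) in 1-AKP. B4GALT4 followed it in both treatments, with pair differences of -0.71, -0.54 and -0.37 in DMSO. SYPL1 followed it in DMSO (-0.80, -0.53 and -0.42) and not in 1-AKP (-0.56, -0.59 and -0.35), and IAPP and DCHS1 did not follow it in DMSO. The same 492 genes had medians of 0.203, 0.151 and 0.123 (risen) and -0.228, -0.19 and -0.141 (fallen) in the 1-AKP pairs, where TUNAR remained at 24.9%, 33.8% and 44.1%. Pair 3 is the only pair of passage 75, and the spread of all pair differences, over genes whose log2 CPM averaged 1 or more, was also wider in pair 1 (SD 0.235) than in pairs 2 (0.226) and 3 (0.211). With 3 pairs no test was made, and the parts of passage and of remaining TUNAR were not tested.

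Changes also moved with transcript length. In 10 bins of 1599 genes by length, the median paired change ran from -0.022 in the shortest bin to 0.022 in the longest, from 6458 bases upward. The share of risen genes ran from 0.625% in the shortest bin to 4.69% in the longest, and that of fallen genes from 0.876% to 1.56%. The risen genes had a median length of 4758 bases, the fallen genes 3336 and all tested genes 2889. Removing the length trend gave 469 calls, 234 risen and 235 fallen, among them all 78 stable calls. What the trend reflects was not tested.

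**Figure D5:**
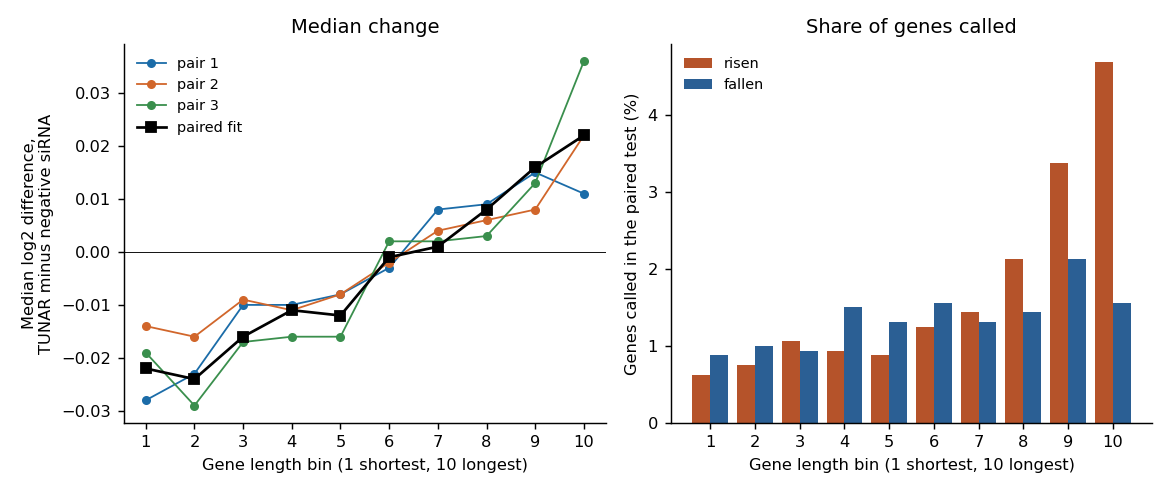
Left, median log2 difference per bin of gene length, in the paired fit (black squares) and in each pair (coloured circles); right, percent of genes called risen (red) and fallen (blue), in 10 bins of 1599 tested genes ordered by the deposited gene length in bases. The fitted median moves from -0.022 to 0.022, and the share of risen genes climbs from 0.625% to 4.69% while that of fallen genes stays between 0.876% and 2.13%.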

How the data were processed

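Polyadenylated RNA of 12 cultures was sequenced on an Illumina HiSeq, per the labels. The authors deposited an expected count per gene and library, not normalised, per the file headers, beside FPKM (fragments scaled by gene length and library total). A deposited length column gives bases and belongs to no standard expression unit. RSEM, Bowtie, BWA and the builds GRCh37 and hg19 are named in the submitters' processing notes, without versions or roles. Genes absent from a file were taken as 0. Of 21508 identifiers 21386 were matched to RefSeq symbols (GRCh38.p14), and 924 of 950 list entries were in the files. Between 35.3% and 36.0% of the listed expected counts, which are all above 0, were further than 1e-06 from a whole number, and all were rounded.

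Genes were kept by edgeR's filterByExpr (minimum count 10, minimum total 15), which left 15990. Libraries were scaled by TMM in edgeR 4.0.16 under R 4.3.3, and all 12 entered 1 fit (glmQLFit, robust). The unpaired fit had 4 group means and 8 residual degrees of freedom (coefficient of variation 8.74%). The paired fit added the replicate number as a block within each treatment, with 4 residual degrees of freedom (2.81%). Both used the quasi-likelihood test with Benjamini-Hochberg adjustment over all genes and a threshold of 0.05, and fitted values carry 95% intervals. The labels give only replicate numbers and passages. The numbers were treated as pairs because deviations of same-numbered libraries from their group means correlated over genes. In DMSO r was 0.376, 0.178 and 0.217 for numbers 1, 2 and 3, and with 1-AKP 0.416, 0.162 and 0.286, all over 0.1, against -0.313 to 0.08 for different numbers. Deviations within a group cancel out, so positive r for the same number brings lower r for different numbers. The latter are therefore no separate evidence, and the pairs were taken from the same values that were then tested. Within-group pairs of DMSO libraries differed by a chi-square per degree of freedom from 2.39 to 9.44, so none was a copy. TUNAR was also compared by an exact permutation test. The scripts were tested on simulated data.

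Alternatives were a block shared by both treatments, DESeq2 1.42.0, library size scaling, other filters, limma 3.58.1 on log2(FPKM + 0.1) and log2(FPKM + 1), the 6 DMSO libraries alone, passage, removal of the length trend, and each replicate left out. The named genes are TUNAR; genes called without pairing; the 12 risen and 12 fallen paired calls of largest change whose log2 CPM averages 1 or more and whose 3 pairs share a direction; up to 12 risen and 12 fallen with the lowest p whose call remains without any 1 replicate number; and, of every list, at most 4 called genes with the lowest p. The 35 pathway and 5 marker lists, and the comparison itself, were chosen with earlier results of these data known. Called loci without a descriptive name, 14 in number, were counted and not named. Genes given as not called were picked with their values known. Results of some genes are not reported here.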

Additional observations from a re-analysis of the deposited data

Results flagged for a closer look

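RNU6-15P, a pseudogene copy of the U6 small nuclear RNA, was the gene whose paired siRNA effect differed between DMSO and 1-AKP by a test of the difference itself. In DMSO its control libraries had 0.75, 0.934 and 0 CPM and all 3 libraries with TUNAR siRNAs 0. With 1-AKP it was at 0 in all but replicate 3 of the TUNAR siRNAs (1.84 CPM), and the fitted difference between the treatments was -12.45 on the log2 scale. With every library of a group at 0 that value depends on the prior count and is no bound on a fold, and reads of near-identical U6 copies may be split between them.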

How the results depend on the processing

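The paired count rested on the pairing. Without pairing 2 genes were called, and with the replicate block 492 within each treatment or 488 with a block shared by both; that shared block and the block within treatments put TUNAR at -1.45 (adjusted p = 0.00248 and 0.0108), and DESeq2 without pairs put it at -1.44 (adjusted p = 5.3e-05), each past the threshold that the unpaired edgeR test missed, while DESeq2 with pairs gave TUNAR no adjusted p. Unpaired, DESeq2 called 21 genes (7 risen, 14 fallen), limma on log2(FPKM + 0.1) and log2(FPKM + 1) called 1 each, the 6 DMSO libraries alone 0 (714 at an unadjusted p under 0.05), passage 74 alone 0 (410), and the 6 fits without 1 library between 0 and 1, the 1 being without replicate 3 of the TUNAR siRNAs. Paired, DESeq2 called 168 (94 risen, 74 fallen) of the 7000 genes with an adjusted p, a group that leaves out 142 of the 492, limma 63 (19 risen, 44 fallen) and 38 (11 and 27), the 6 DMSO libraries alone 757 (438 and 319), no filter 609, and leaving out a replicate number between 104 and 368 (268 without replicate 3); library size scaling gave 226 risen and 256 fallen, and removing the length trend 234 and 235. The 492 calls kept their direction under the shared block, DESeq2, library size and limma settings. The count that moved the same way in 1-AKP lay between 100 and 345 of 104 to 368 calls without a replicate number (252 of 268 without replicate 3). The difference between treatments had 1 call with the replicate block. Of the 95 named genes 38 kept their paired call without any 1 replicate number, while 24, 55 and 34 lost it without replicate 1, 2 and 3, and none reversed when paired. Unpaired, CRYBA2 reversed to -0.014 without replicate 1 of the negative siRNA (range over the libraries left out -0.014 to 0.45), and TOP2A to -0.02 without its replicate 2 and to -0.12 without replicate 1 of the TUNAR siRNAs (range -0.12 to 0.32); no unpaired call was involved, and both genes differed widely between replicates. With 3 libraries a group, the median 95% half-width was 0.229 on the log2 scale unpaired and 0.143 paired.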
